A study of Rattus norvegicus with 12 samples.

Results

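Müller glia handle glutamate, potassium and water through the products of 4 genes that were followed here in RCS rat retinas, *Glul*, *Slc1a3*, *Kcnj10* and *Aqp4*. They were chosen by their Ensembl identifiers, and each was accepted after its chromosome in the deposited files matched the expected chromosome. All 4 passed, out of 32883 genes listed. The rule itself uses no measured value, but the members were chosen with earlier results of these data known. All 4 passed the filter on low counts in every comparison.

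Müller glia span the retina from its inner surface to the photoreceptors and are its main supporting cell. They take up glutamate released by neurons through the transporter encoded by *Slc1a3* (GLAST, EAAT1), and convert it with ammonia into glutamine by glutamine synthetase, the product of *Glul*. They also carry away the potassium that active neurons release, largely through the inward-rectifying channel Kir4.1 encoded by *Kcnj10*, and they pass water through aquaporin-4, encoded by *Aqp4*. Kir4.1 and aquaporin-4 are known to lie together in the endfeet of Müller glia around blood vessels and at the inner surface of the retina. Astrocytes of the inner retina also express several of these genes, so a level in whole retina is not that of Müller glia alone.

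Poly(A) RNA of whole retinas was sequenced from 12 rats, with 3 rats of each line at each age. The ages were p21 and p60, the first and last time points of a study of the natural course of the disease, and the animals were untreated. The immunocompetent line has the genotype RCS-p+ and is labelled WT and male, and the athymic line has the genotype RCS-p+/Foxn1mu and is labelled female, so that line and labelled sex coincide. All animals of both lines carry the MerTK mutation of the RCS rat, which impairs the clearance of shed rod outer segments and leads to the death of photoreceptors. No retina without degeneration is among the libraries, so maturation between p21 and p60 and degeneration cannot be told apart, and in whole retina a change in the number of cells of a type cannot be told apart from a change in RNA per cell. Total counts ranged from 13852516 to 16725355 per library. The sample titles number the libraries, and these numbers are used here, 1 to 3 (immunocompetent) and 4 to 6 (athymic) at p21, and 19 to 21 (immunocompetent) and 22 to 24 (athymic) at p60.

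Some libraries stood apart in ways that the groups do not explain. Libraries 4, 5 and 22 are labelled female but had 328, 316 and 269 CPM (counts relative to all counts of a library) on the 48 genes of the Y chromosome, within or above the 229 to 323 CPM of the libraries labelled male, whereas libraries 6, 23 and 24 had 8.79, 23.2 and 16.1. On 4 X-linked genes, libraries 4, 5 and 22 had 5.62, 4.87 and 8.28 CPM, whereas libraries 6, 23 and 24 had 666, 516 and 402. Library 3, labelled male, had 239 CPM on these genes, against at most 7.87 in the remaining libraries with that label. Libraries 4, 19 and 24 each had between 34 and 52 genes at least 8-fold above the median of the other libraries of their age (at a minimum of 10 CPM, the Y chromosome left out), whereas the others had at most 10. In library 4, such genes took 18820 CPM. The comparisons were therefore repeated without libraries 4, 5 and 22, without libraries 4, 19 and 24, and without each library alone. Whether the retina label is borne out by markers of retinal cells was not examined, since the files do not pair identifiers with gene names. For the same reason the other genes of these pathways were not analysed here.

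In the deposited annotation of Rnor_6.0, *Glul* (ENSRNOG00000049560) lies on chromosome 13 from 71331052 to 71340229 on the plus strand, with 2485 bases in 7 merged exons. *Slc1a3* (ENSRNOG00000016163) lies on chromosome 2 from 57860834 to 57935363 on the minus strand, with 3982 exonic bases in 10 merged exons. *Kcnj10* (ENSRNOG00000007705) lies on chromosome 13 from 90723092 to 90752581 on the plus strand, with 1420 exonic bases in 4 merged exons. *Aqp4* (ENSRNOG00000016043) lies on chromosome 18 from 6765945 to 6782996 on the minus strand, with 5419 exonic bases in 6 merged exons. For each of the 4, 0 other genes of this annotation overlap any part of the gene. Overlapping or antisense transcripts that it does not list were not examined.

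All 4 genes were found by symbol in RefSeq's table of promoter sequences (build GRCr8), on the same chromosome and strand as in the files. For description only, the stretch from 250 bases before to 50 bases after a transcription start is shown for each. *Glul* has 2 such windows in the table, *Slc1a3* has 3, *Aqp4* has 2 and *Kcnj10* has 1. The window shown was chosen by the distance of its start from the gene's end in RefSeq, set against the gene length in the files. For *Glul* this distance was 9489 bases, against a length of 9178 in the files, and the window not shown lies farther upstream, at the start of a RefSeq gene of 66055 bases. For *Aqp4* the distance was 16454 bases, against a length of 17052 in the files, and the RefSeq gene spans 16646 bases. The distance of the other *Aqp4* window is not given here. The positions are chr13:68575816-68576115 on the plus strand for *Glul*, chr2:59557738-59558037 on the minus strand for *Slc1a3*, chr13:87334260-87334559 on the plus strand for *Kcnj10* and chr18:6798793-6799092 on the minus strand for *Aqp4*. Capitals mark matches, on either strand, to the CCAAT box (CCAAT), the GC box (GGGCGG) and the core letters bound by SOX factors (ACAAAG).
Glul: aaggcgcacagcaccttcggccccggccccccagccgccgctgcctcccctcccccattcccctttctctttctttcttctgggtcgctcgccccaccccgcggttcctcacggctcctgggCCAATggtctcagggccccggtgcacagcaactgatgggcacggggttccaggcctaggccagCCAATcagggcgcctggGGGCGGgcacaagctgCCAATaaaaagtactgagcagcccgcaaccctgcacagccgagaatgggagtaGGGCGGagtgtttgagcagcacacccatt
Slc1a3: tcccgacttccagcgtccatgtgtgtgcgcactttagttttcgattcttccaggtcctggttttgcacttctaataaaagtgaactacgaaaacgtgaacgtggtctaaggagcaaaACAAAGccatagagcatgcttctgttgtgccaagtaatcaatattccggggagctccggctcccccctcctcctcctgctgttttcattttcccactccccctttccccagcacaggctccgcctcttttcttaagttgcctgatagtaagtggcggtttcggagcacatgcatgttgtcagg
Kcnj10: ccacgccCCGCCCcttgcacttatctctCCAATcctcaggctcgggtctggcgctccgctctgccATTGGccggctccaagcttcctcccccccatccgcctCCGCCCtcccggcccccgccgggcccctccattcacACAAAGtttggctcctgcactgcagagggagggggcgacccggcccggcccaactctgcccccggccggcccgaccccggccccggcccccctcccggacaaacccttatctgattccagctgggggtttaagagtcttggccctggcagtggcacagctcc
Aqp4: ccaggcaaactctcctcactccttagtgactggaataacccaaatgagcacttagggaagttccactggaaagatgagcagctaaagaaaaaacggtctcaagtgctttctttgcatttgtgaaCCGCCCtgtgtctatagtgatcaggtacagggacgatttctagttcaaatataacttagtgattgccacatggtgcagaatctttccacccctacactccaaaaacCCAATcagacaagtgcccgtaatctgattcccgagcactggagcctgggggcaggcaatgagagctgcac
The *Glul* window holds 3 CCAAT matches and 2 GC box matches. The *Kcnj10* window holds 2 CCAAT matches, 2 GC box matches and 1 SOX core match. The *Aqp4* window holds 1 CCAAT match and 1 GC box match, and the *Slc1a3* window holds 1 SOX core match. No match overlaps another. Among all 33469 windows of this length, 37.5% hold CCAAT, 33.1% hold GGGCGG and 18.8% hold ACAAAG, so each of these letters is common and a match is only a description of the window. The TATA box (TATAAA), held by 14.2% of windows, was not found in the 4 shown. The GC content was 65.7% for *Glul*, 70.3% for *Kcnj10* and 47.3% for *Aqp4*, against a median of 51.7% over all windows, and that of *Slc1a3* lay just below this median.

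All 4 genes were higher at p60 than at p21, and by very unequal amounts. Over all 12 retinas, *Aqp4* rose 4.33-fold (95% interval 3.96 to 4.74), *Kcnj10* rose 2.46-fold (2.31 to 2.63), *Slc1a3* rose 2.20-fold (2.04 to 2.36) and *Glul* rose 1.24-fold (1.16 to 1.33). Levels are given below as CPM scaled with TMM factors.

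*Glul*, the glutamine synthetase gene, had 2572, 2466 and 2328 CPM in libraries 1, 2 and 3, and 2516, 2571 and 2716 in libraries 4, 5 and 6, at p21. At p60 it had 2759, 3272 and 3110 CPM in libraries 19, 20 and 21, and 3330, 3225 and 3134 in libraries 22, 23 and 24. Library 19 was the lowest of the p60 libraries and lay just above the highest p21 library, library 6, so the ages did not overlap but came close. The 6 retinas of p21 averaged 2528 ± 129 CPM (SD) and the 6 of p60 averaged 3138 ± 204.

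*Slc1a3*, the glutamate transporter gene, had 333, 346 and 321 CPM in libraries 1, 2 and 3, and 323, 351 and 357 in libraries 4, 5 and 6. At p60 it had 728, 706 and 824 CPM in libraries 19, 20 and 21, and 749, 687 and 768 in libraries 22, 23 and 24. Every p60 library was well above every p21 library, with library 21 the highest. The 6 retinas of p21 averaged 338.5 ± 15.2 CPM (SD) and the 6 of p60 averaged 743.5 ± 48.8.

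*Kcnj10*, the gene of the potassium channel Kir4.1, had 25.4, 23.2 and 22.4 CPM in libraries 1, 2 and 3, and 25.5, 25.7 and 24.5 in libraries 4, 5 and 6. At p60 it had 58.8, 59.6 and 57.5 CPM in libraries 19, 20 and 21, and 61.4, 63.4 and 60.5 in libraries 22, 23 and 24. The libraries of each age lay close together and the ages did not overlap. The 6 retinas of p21 averaged 24.5 ± 1.34 CPM (SD) and the 6 of p60 averaged 60.2 ± 2.09. The counts behind these levels were the lowest of the 4 genes, with 297 to 384 per library at p21 and 892 to 1044 at p60.

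*Aqp4*, the gene of the water channel aquaporin-4, had 93.8, 112.5 and 101 CPM in libraries 1, 2 and 3, and 94.3, 89.9 and 90.2 in libraries 4, 5 and 6. At p60 it had 386, 416.5 and 485 CPM in libraries 19, 20 and 21, and 425, 411 and 393 in libraries 22, 23 and 24. No p21 library came near a p60 library, and library 2 at p21 and library 21 at p60 were the highest of their ages. The 6 retinas of p21 averaged 97.0 ± 8.61 CPM (SD) and the 6 of p60 averaged 419 ± 35.1.

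**Figure D1:**
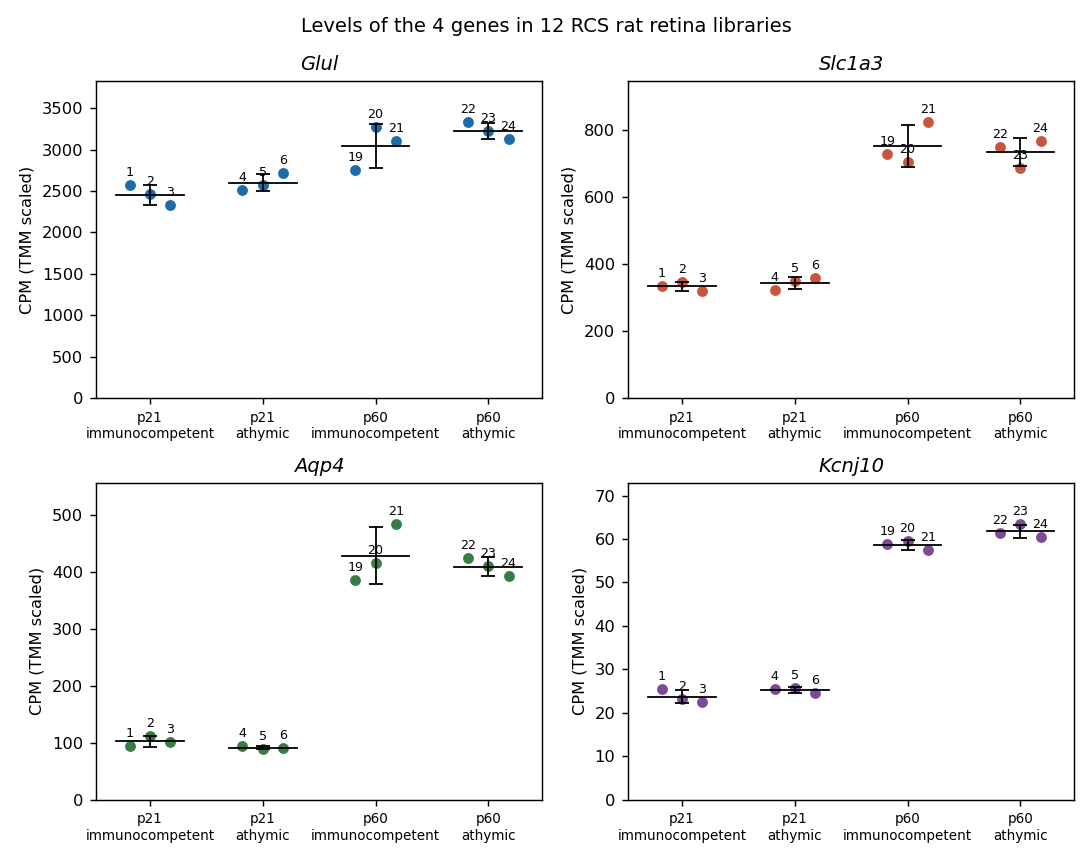
Level of each gene in CPM scaled with TMM factors (vertical axes, linear from 0) in the 4 groups of 3 libraries. Points are libraries with their numbers, horizontal lines are group means and bars are ± SD, and for each gene every p60 library lies above every p21 library.

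The comparison of p21 with p60 asks how the retina changes over the disease course. With line as a covariate, *Glul* had a log2 fold change of 0.31 (SE 0.0451, adjusted p = 3.51e-05), *Slc1a3* of 1.14 (SE 0.0492, adjusted p = 1.61e-10), *Kcnj10* of 1.30 (SE 0.0434, adjusted p = 1.19e-11) and *Aqp4* of 2.11 (SE 0.0610, adjusted p = 3.61e-12), by the quasi-likelihood test of edgeR, with p-values adjusted by Benjamini-Hochberg over 16069 genes. All 4 members were thus called higher, where 31.7% of all genes tested were called higher, 30.3% lower and 62% in either direction. A call alone was therefore common, and the 4 members were chosen with earlier results of these data known. The 10th to 90th percentiles of the log2 fold change of single genes ran from -0.66 to 0.78, and *Slc1a3*, *Kcnj10* and *Aqp4* lay above this range, whereas *Glul* lay inside it. The median log2 fold change was 1.22 over the 4 members and 0.02 over all genes tested. For each member, the 6 p60 libraries lay above the 6 p21 libraries (two-sided exact permutation test of log2 CPM, p = 0.00216, the smallest that 6 against 6 allow).

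By the size of the rise, *Aqp4* ranked 105th, *Kcnj10* 443rd, *Slc1a3* 610th and *Glul* 4055th among the 5097 genes called higher. Compared with genes within 1 log2 unit of its own mean level, *Aqp4* was exceeded in log2 fold change by 4 of 1550 genes and *Slc1a3* by 5 of 519. *Kcnj10* was exceeded by 50 of 5433 such genes, and *Glul* by 3 of 24, where the median log2 fold change of the 24 was -0.44. The rise of *Glul* was thus small, but lay above that median. The biological coefficient of variation from edgeR, the spread between retinas of the same age and line, was 0.0875 for *Glul* and 0.0721 for *Kcnj10*, below the medians of 0.108 and 0.0897 over genes of similar level. It was 0.0861 for *Slc1a3* and 0.0927 for *Aqp4*, above the corresponding medians of 0.0848 and 0.0812.

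**Figure D2:**
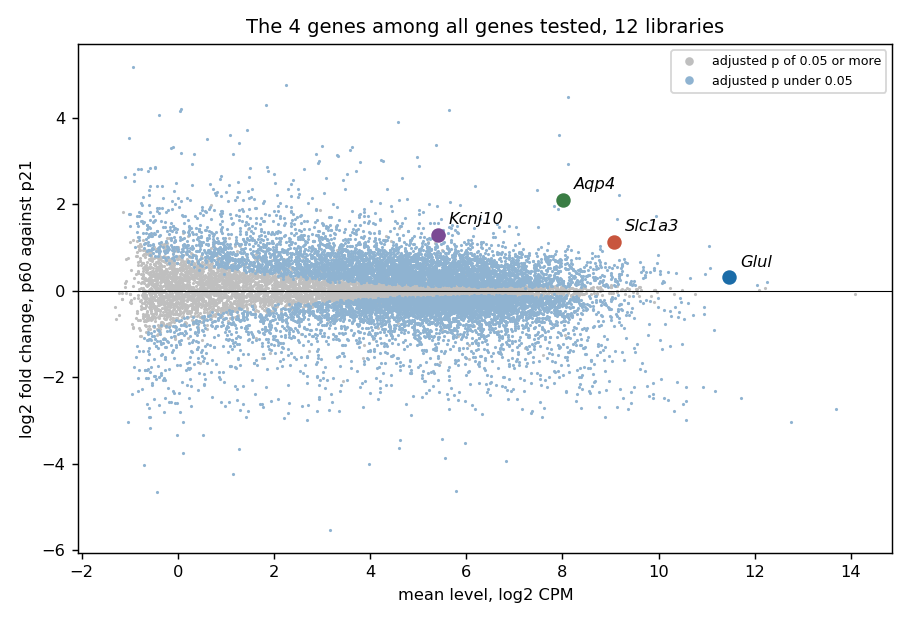
Log2 fold change from p21 to p60 (vertical axis) against mean level in log2 CPM (horizontal axis) for the 16069 genes tested over 12 libraries. Each small point is a gene, coloured by its adjusted p, and the 4 labelled points are the members, of which *Aqp4* at 2.11 is the highest and *Glul* at 0.31 is the rightmost.

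The choice of scaling moved these sizes. When libraries were scaled to their total counts only, the log2 fold changes were 0.50 for *Glul*, 1.32 for *Slc1a3*, 1.49 for *Kcnj10* and 2.30 for *Aqp4*, while the median of all genes tested moved to 0.20. Each member rose by more than the median gene under both scalings.

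Each line was then evaluated alone, so that the lines shared no libraries. In the immunocompetent line, the log2 fold change was 0.31 for *Glul* (SE 0.0795, adjusted p = 0.00967 by edgeR), 1.17 for *Slc1a3* (SE 0.0731, adjusted p = 1.92e-06), 1.31 for *Kcnj10* (SE 0.0793, adjusted p = 1.60e-06) and 2.06 for *Aqp4* (SE 0.0991, adjusted p = 3.55e-07). In the athymic line, it was 0.31 for *Glul* (SE 0.0503, adjusted p = 0.00116 by edgeR), 1.09 for *Slc1a3* (SE 0.0687, adjusted p = 5.11e-06), 1.29 for *Kcnj10* (SE 0.0595, adjusted p = 8.75e-07) and 2.16 for *Aqp4* (SE 0.0555, adjusted p = 1.72e-07). All 4 members were called higher in each line, against 25.6% of the genes tested in the immunocompetent line (25.8% lower, 51.4% in either direction) and 25.3% in the athymic line (24.6% lower, 49.9% in either direction). Without libraries 4, 5 and 22, which leaves library 6 as the only athymic library at p21, with its spread assumed to be that of the others, the rise of *Glul* in the athymic line was no longer called (log2 fold change 0.21, adjusted p = 0.188 by edgeR), whereas *Slc1a3*, *Kcnj10* and *Aqp4* were called with log2 fold changes of 1.01, 1.33 and 2.14. Without these libraries, the rise of *Glul* over both lines was 0.29 (adjusted p = 0.00263 by edgeR).

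**Figure D3:**
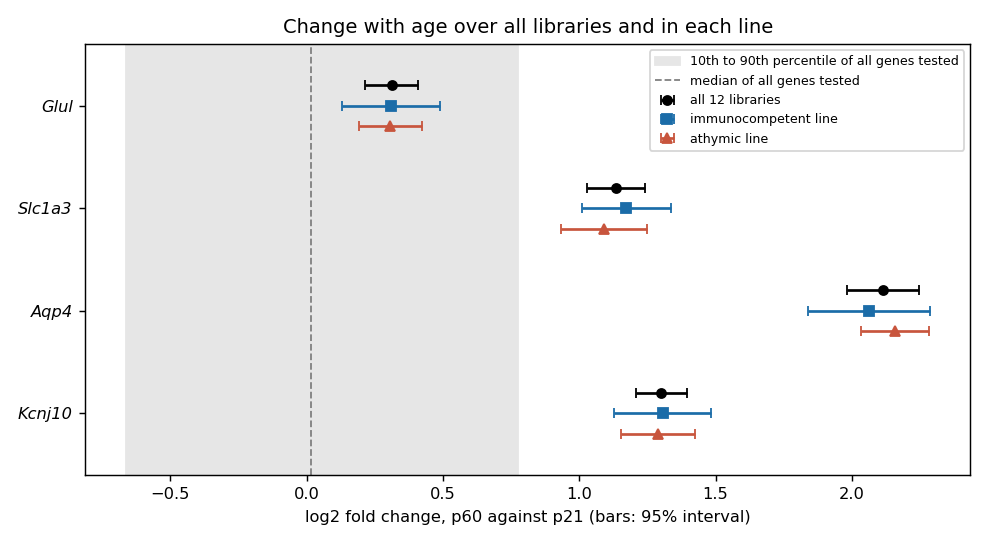
Log2 fold change from p21 to p60 with its 95% interval (horizontal axis) for each gene, for both lines together and for each line. The grey band spans the 10th to the 90th percentile of all genes tested, which holds *Glul* at 0.31 but not *Slc1a3*, *Kcnj10* or *Aqp4*.

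The difference of the age change between the lines was tested by the interaction of age and line, as the athymic minus the immunocompetent log2 fold change. It was 0.00057 for *Glul* (95% interval -0.20 to 0.20), -0.08 for *Slc1a3* (-0.29 to 0.13), -0.02 for *Kcnj10* (-0.21 to 0.18) and 0.10 for *Aqp4* (-0.16 to 0.35). None of the 4 was called (adjusted p of 0.846 to 0.999 by edgeR), where 0.00622% of all genes were called (1 gene, against 146 by DESeq2). A difference between the lines of more than 0.35 in log2 fold change lies outside all 4 intervals, and differences inside these intervals are not excluded by these libraries.

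The lines themselves were compared at each age, since the series was also designed to find what the immunodeficient variant changes. At p21 the athymic minus immunocompetent log2 fold change was 0.09 for *Glul*, 0.05 for *Slc1a3*, 0.10 for *Kcnj10* and -0.16 for *Aqp4*. The largest of these, that of *Aqp4*, had a 95% interval of -0.33 to 0.01 (adjusted p = 0.430 by edgeR). At p60 the values were 0.08 for *Glul*, -0.03 for *Slc1a3*, 0.08 for *Kcnj10* and -0.07 for *Aqp4*, and the lowest adjusted p was 0.737 (edgeR, *Kcnj10*). No member was called at either age. Over all genes, 0 of 15225 were called at p21 (0%), where 1936 had an unadjusted p under 0.05 and DESeq2 called 140, and 3 of 15557 were called at p60 (0.0193%, with 0.0129% higher and 0.00643% lower), where DESeq2 called 106. These counts were unstable, with 179 called at p60 without libraries 4, 19 and 24, and with 0 to 87 called at p21 and 0 to 61 at p60 when 1 library was left out. For each member, the difference between the lines was smaller in size than its change with age. For *Glul*, the p60 difference between the lines had a 95% interval of -0.07 to 0.24.

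To compare the genes with each other, levels were divided by exonic length (RPKM, TMM scaled), and ratios were taken within each library, so that the scaling of libraries cancels. *Glul* had by far the highest level per kilobase at both ages, ranking 33rd of 24673 genes with counts at p21 and 15th at p60 by mean RPKM. *Slc1a3* ranked 922nd and then 267th, *Aqp4* 5741st and then 931st, and *Kcnj10* 5939th and then 2121st. The level per kilobase also depends on the exons annotated for each gene, which for *Kcnj10* span only 1420 bases.

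At p21, the level of *Glul* per kilobase was 11.97 ± 0.432 times that of *Slc1a3*, 57.3 ± 6.96 times that of *Aqp4* and 59.1 ± 2.55 times that of *Kcnj10* (SD, n = 6). At p60 these ratios were 6.79 ± 0.661, 16.4 ± 1.34 and 29.8 ± 1.72. The transcripts of the transporter and of both channels thus gained on that of the enzyme. For each of the 3 ratios the p21 and p60 libraries did not overlap (two-sided exact permutation test of the log2 ratio, p = 0.00216, adjusted p = 0.0026 over the 6 pairs of members).

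*Aqp4* and *Kcnj10*, the water and the potassium channel, had nearly equal levels per kilobase at p21, with ratios of 0.969, 1.27 and 1.18 in libraries 1, 2 and 3, and 0.970, 0.917 and 0.965 in libraries 4, 5 and 6. At p60 the ratios were 1.72, 1.83 and 2.21 in libraries 19, 20 and 21, and 1.82, 1.70 and 1.70 in libraries 22, 23 and 24. The order of the 2 genes was therefore not the same in all p21 retinas, whereas *Aqp4* was above *Kcnj10* in 6 of 6 retinas at p60. This order rests on the annotated exonic lengths, 5419 bases for *Aqp4* and 1420 for *Kcnj10*. The change of the ratio with age does not depend on them. The log2 ratio rose by 0.81 (two-sided exact permutation test, p = 0.00216, adjusted p = 0.0026 over the 6 pairs, n = 6 per age).

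The level per kilobase of *Slc1a3* was 4.78 ± 0.497 times that of *Aqp4* at p21 and 2.42 ± 0.159 times at p60 (SD, n = 6), again without overlap between the ages (exact permutation test, adjusted p = 0.0026). In contrast, *Slc1a3* and *Kcnj10* changed by similar amounts. The 6 retinas of p21 had a ratio of 4.95 ± 0.309 (SD) and the 6 of p60 had 4.41 ± 0.411, and the ages overlapped. The difference of -0.17 in log2 ratio had an exact permutation p of 0.0325, which was also its adjusted p. The adjusted p was above 0.05 in 7 of the 12 comparisons that left out 1 library each. Over all 12 the difference was -0.21 to -0.13. Without libraries 4, 19 and 24 the adjusted p of the same test was 0.0635. The difference there was -0.20, so the lost call does not mean a smaller difference. In order of level per kilobase, *Glul* was followed by *Slc1a3* at both ages, and *Aqp4* and *Kcnj10* were neighbours that did not differ beyond their spread at p21.

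**Figure D4:**
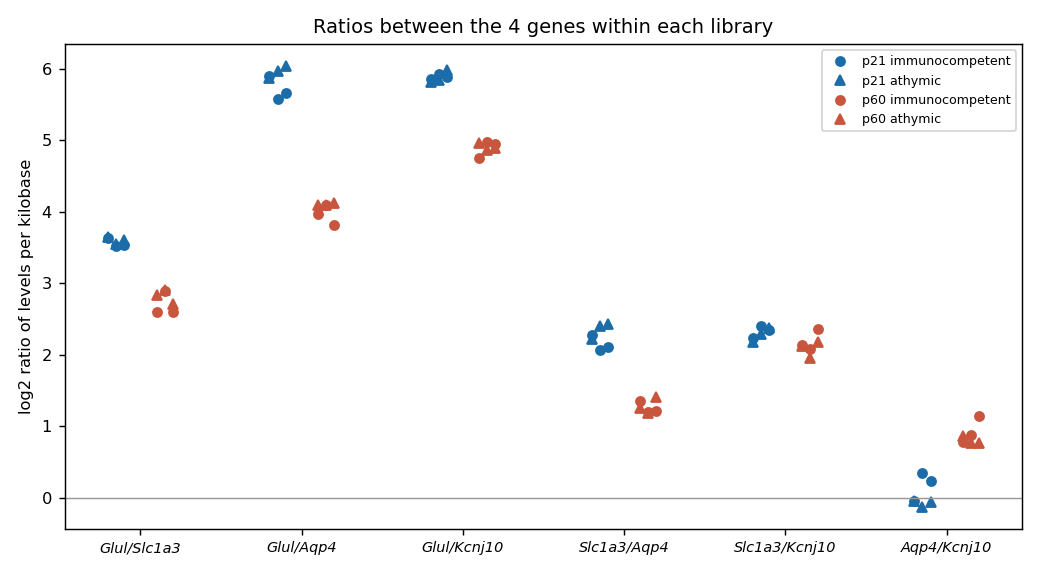
Log2 ratio of the levels per kilobase of each pair of the 4 genes (vertical axis) in each library, with p21 in blue and p60 in red, circles for the immunocompetent and triangles for the athymic line. *Glul* fell relative to each of the other genes, *Aqp4*/*Kcnj10* went from about equal (0) at p21 to 0.76 or more at p60, and *Slc1a3*/*Kcnj10* overlapped between the ages.

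Across the 12 libraries, the log2 CPM of *Slc1a3*, *Aqp4* and *Kcnj10* had Pearson's r of 0.990 (*Slc1a3* and *Aqp4*), 0.985 (*Slc1a3* and *Kcnj10*) and 0.9845 (*Aqp4* and *Kcnj10*), and *Glul* had r of 0.883 to 0.911 with the others. All points share library and scaling, and the 2 ages account for most of the spread. Among the 13724 genes whose mean log2 CPM reached 1, *Slc1a3* was the 17th most similar to *Aqp4* and *Kcnj10* was the 56th, whereas *Glul* was the 2014th. Many genes followed the same course, since 727 had r of at least 0.95 with *Aqp4*, 785 with *Slc1a3*, 705 with *Kcnj10* and 10 with *Glul*. The gene nearest to *Slc1a3* was ENSRNOG00000011861 on chromosome 16 (r = 0.998), which rose from 80 to 112 counts per library at p21 to 470 to 671 at p60. The gene nearest to *Aqp4* was ENSRNOG00000018669, also on chromosome 16 (r = 0.9965), which rose from 105 to 158 counts to 517 to 755. The files give no names for them.

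When the mean of each group of 3 was subtracted, so that age and line no longer contributed, the 12 deviations had r of 0.43 for *Slc1a3* and *Aqp4*, -0.32 for *Slc1a3* and *Kcnj10* and -0.40 for *Aqp4* and *Kcnj10*. *Glul* had r of 0.21 with *Slc1a3*, 0.25 with *Aqp4* and 0.30 with *Kcnj10*. Within groups the correlations were thus much lower than over all libraries and were of both signs. A drop was fixed in advance, because the subtraction removes the difference between the ages. None of these r was tested, and their signs rest on groups of 3.

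The positions of the genes were also compared with the change of the genes around them. Of the 20 nearest tested genes of *Slc1a3* (10 on each side), 3 were called higher and 14 lower at p60, where 31.7% of all genes tested were higher and 30.3% lower. Around *Glul*, 11 of 20 were higher and 3 lower. Around *Aqp4*, 9 of 20 were higher and 4 lower, and around *Kcnj10*, 8 of 20 were higher and 4 lower. These counts were not tested against the shares over all genes. The highest log2 fold change among the 20 neighbours was 1.31 around *Glul*, 2.77 around *Kcnj10* and 2.96 around *Slc1a3*, each above that of the member, and 0.76 around *Aqp4*, below that of *Aqp4*.

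**Figure D5:**
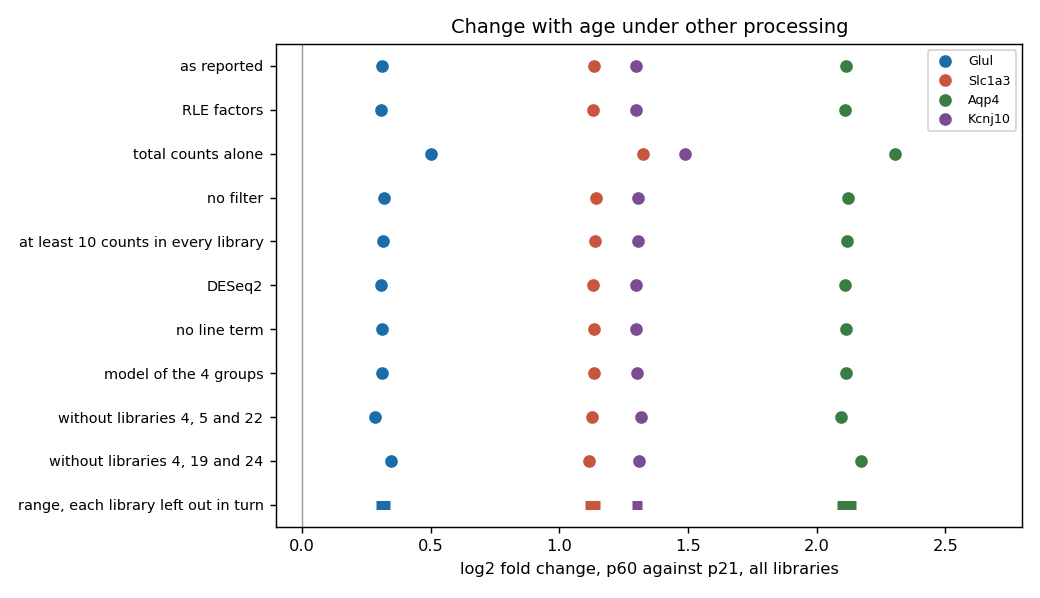
Log2 fold change from p21 to p60 over all libraries (horizontal axis) for the 4 genes under each processing alternative (rows), with bars for the range when each library was left out in turn. The order of the genes was the same in each row, and scaling to total counts alone moved all 4 to the right, *Aqp4* from 2.11 to 2.30.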

How the data were processed

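Whole retinas of RCS rats were sequenced as poly(A)-enriched, paired-end libraries. The authors deposited raw counts of reads per Ensembl gene for each library, without normalization. The submitters' processing notes name STAR 2.5.2b, the build Rnor_6.0 and featureCounts of Subread 1.5.2, whereas the paper gives another featureCounts version. The strand setting is not given in the sources used here.

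From these counts, genes were kept with filterByExpr (minimum count of 10, minimum total of 15), scaled with TMM factors and tested with edgeR 4.0.16 in R 4.3.3 by the quasi-likelihood test, with Benjamini-Hochberg adjustment over all genes tested and a threshold of 0.05. DESeq2 1.42.0 was an alternative. The standard error of a log2 fold change was derived from the F statistic of its test. The study used DESeq2 and compared 3 retinas of p21 with 3 of p60 without saying which, whereas all 12 libraries, 6 of each age, entered the present fit, which has a term for line. Single values were compared by exact permutation tests in SciPy 1.17.1. In simulated counts where 200 genes had a true log2 fold change of 1, the test returned 159 of them among 15877 genes for the ages over all libraries, with 6 false calls. For the interaction, it returned 123 among 15869 genes, with 7 false calls. Only these 200 genes were changed, so the simulation does not address smaller changes or a table in which most genes change.

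The members, lists and tests were chosen with earlier results of these data known. The 4 members were always named. A rule for naming genes of 13 marker and pathway lists was not applied, because the gene table given matched 0 of the 32883 identifiers. Similar genes were ranked by Pearson's r of log2 CPM over 12 libraries, and 2 are given by identifier. Libraries of the same group differed by more than sampling noise (chi-square over degrees of freedom of 3.93 to 22.7 in 12 pairs), and the series description gives 1 rat per library. No library was left out of the main comparisons.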

Additional observations from a re-analysis of the deposited data

Results flagged for a closer look

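Dixon's ratio was computed for the log2 CPM of each gene and the log2 ratio of each pair of genes in the 6 libraries of each age, 20 groups in all. It marked 2 of them, where chance marks about 1 in 20, and the measures are not independent. At p60, *Glul* in library 19 lay apart below the other p60 libraries, with 11.43 log2 CPM, but above every p21 library. Library 19 was also among those with many genes far above the others of their age (52 genes that took 9306 CPM), and the part of these genes in the *Glul* value was not tested. At p60, the log2 ratio of *Aqp4* to *Kcnj10* in library 21 was far above the others, with 1.14. Library 21 had the highest *Aqp4* and the lowest *Kcnj10* level of the p60 libraries.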

How the results depend on the processing

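No paired analysis was possible because each library has its own number and the groups share none. For the change with age over all libraries and in the immunocompetent line, each gene kept its direction and its call under every alternative run. With each library left out in turn, the log2 fold change over all libraries was 0.29 to 0.34 for *Glul*, 1.10 to 1.16 for *Slc1a3*, 1.28 to 1.32 for *Kcnj10* and 2.08 to 2.15 for *Aqp4*. In the athymic line, the call of *Glul* was lost without libraries 4, 5 and 22 (log2 fold change 0.21), where 3338 genes were called in place of 7740 with 3 libraries fewer. The exact tests of each gene's level kept their calls with RLE factors and with total counts. Because the ages did not overlap, leaving out libraries could not end these calls and says nothing about their stability, also without libraries 4, 19 and 24, a setting chosen after seeing the data. Of the ratios, that of *Slc1a3* to *Kcnj10* lost its call without libraries 4, 19 and 24 (-0.20 in log2 ratio) and in 7 of 12 comparisons that left out 1 library, with a range of -0.21 to -0.13.

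No member was called for the interaction or between the lines under any alternative. The interaction was near 0 and changed sign for *Glul* with RLE factors (-0.0072), total counts (-0.012), DESeq2 (-0.0072), without libraries 4, 5 and 22 (-0.0825) and without libraries 4, 19 and 24 (-0.0696), and with 1 library left out it was -0.0665 to 0.0555. It also changed sign for *Kcnj10* with no filter (0.0030), without libraries 4, 5 and 22 (0.0324) and without libraries 4, 19 and 24 (0.0073), and with 1 library left out it was -0.0898 to 0.0025. At p60 the difference between the lines with 1 library left out was -0.0803 to 0.0225 for *Slc1a3* and -0.131 to 0.0175 for *Aqp4*, and it was positive for both without library 21 and for *Slc1a3* without library 23 (0.0092).

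The number of genes called over the whole table was unstable where few were called, and the cause was not tested. For the interaction it was 115 with no filter, 0 with at least 10 counts in every library, 146 with DESeq2, 2 without libraries 4, 5 and 22, 3 without libraries 4, 19 and 24, and 1 to 138 with 1 library left out. Between the lines at p21 it was 282 with no filter, 140 with DESeq2, 19 without libraries 4, 5 and 22, and 0 to 87 with 1 library left out. At p60 it was 11 with no filter, 106 with DESeq2, 26 without libraries 4, 5 and 22, 179 without libraries 4, 19 and 24, and 0 to 61 with 1 library left out.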
